A study of Homo sapiens with 19 samples.

Results

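Mesenchymal cells were followed in human liver organoids grown from W01, an established human pluripotent stem cell line from WiCell. A cell was counted as mesenchymal when it held at least 500 detected genes, at most 20% mitochondrial counts, at least 2 unique molecular identifiers (UMIs, counted transcript molecules) from COL1A2 and COL3A1 together, a collagen share of at least 0.1% of its UMIs, and 0 UMIs of the epithelial adhesion gene EPCAM. By that rule 11115 of the 34289 kept cells from 5 libraries were mesenchymal, out of 120240 kept cells in the 19 libraries of the whole series. The cells were chosen by their measured counts of COL1A2, COL3A1 and EPCAM, so these 3 genes are given as a description and tested nowhere.

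The 5 libraries come from organoids on ultra-low attachment (ULA) plates, sampled at 2 ages of the differentiation, day 21 (n = 3) and day 34 (n = 2). All were wild-type and untreated, and were profiled with 10x Genomics 3′ version 3 chemistry. Dissociation differed: every library had 10 min in trypsin, and the day 34 organoids had 1 more wash and 10 further min. Day and dissociation therefore cannot be told apart in any comparison below. No source says that replicates were separate cultures, so p-values measure the spread between these libraries, which may be technical.

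Liver mesenchyme supports the epithelium with matrix and secreted growth factors. Hepatic stellate cells, its best known type, lie along the sinusoids, store retinoids and carry the receptor PDGFRB. When activated they take up contractile genes such as ACTA2 and deposit collagen, which makes them the main source of scar in fibrotic liver. Portal fibroblasts and the mesothelium of the liver surface are related mesenchymal types, and the developing gut tube has a mesenchyme of its own with region-specific transcription factors.

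The libraries held 73799160 to 92522222 UMIs in all, of which mesenchymal cells gave 14416434 to 33266568. Median depth per mesenchymal cell was 8953, 8985 and 8652 UMIs on day 21. It was 13768 in replicate 1 and 4592 in replicate 2 on day 34, so the day 34 libraries stand on either side of day 21. The median mitochondrial share of the members was 5.99%, 6.995% and 10.4% on day 21 and 3.63% and 5.25% on day 34. The part of depth and of this share in the day comparison was not tested. Pairs of libraries shared 9 to 40 cell barcodes, of which 0 to 3 were mesenchymal in both. Collagen UMIs also appeared in the other compartment. Of the EPCAM-positive cells below the collagen threshold, 58.7%, 57.6% and 55.2% on day 21 and 95.0% and 86.5% on day 34 held at least 1 UMI of COL1A2 or COL3A1. The part of free RNA in the results was not tested.

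Cells lay close to the collagen threshold on both sides. Members just inside the share threshold, with a collagen share below 0.15%, numbered 425, 653 and 408 on day 21 and 179 and 583 on day 34. Cells without EPCAM just outside it, with 2 or more collagen UMIs and a share from 0.05% up to the threshold, numbered 218, 463 and 224 on day 21 and 82 and 678 on day 34. A larger group held collagen above both thresholds together with EPCAM. It made up 16.5%, 13.9% and 13.5% of kept cells on day 21 and 39.4% and 21.3% on day 34, and lay outside the rule.

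The label was checked against markers that the rule did not use. Of the fixed mesenchymal markers, VIM (an intermediate filament of mesenchymal cells) stood at 4290.0, 3446 and 4275 CPM on day 21 and 6566 and 4775 CPM on day 34 in mesenchymal cells. CPM are UMI counts of the summed cells of a library scaled to a total of 1000000, and no length scaling is needed for them since this chemistry counts 1 end of each molecule. In EPCAM-positive cells VIM stood at 331, 329 and 338 on day 21 and 736 and 534 on day 34. COL1A1 was 9.83 times, PDGFRA 22.2 times, PRRX1 29.7 times and TWIST1 14.2 times as high in mesenchymal as in EPCAM-positive cells, as ratios of the means over the 5 libraries. SPARC and DCN differed less, with ratios of 1.94 and 2.07. These markers go with the mesenchymal label.

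Some defining genes of other cell types were at or near 0 in the summed mesenchymal counts. The endothelial genes PECAM1, CDH5 and VWF, the leukocyte genes PTPRC and CD14 and the pluripotency genes POU5F1 and NANOG stayed below 1 CPM in every library. The muscle gene MYOG and the neural crest gene SOX10 had 0 UMIs. As lists these markers were not at 0: the 10 endothelial markers, of which 5 stayed below 1 CPM in every library, summed to 53.7 to 143.9 CPM, the 10 neural ones to 27.2 to 119.2 and the 10 leukocyte ones, of which 6 stayed below 1 CPM, to 16.5 to 25.9. The 8 pluripotent and germ cell markers, of which 3 stayed below 1 CPM, summed to 9.8 to 21.2 CPM. The 10 muscle markers, of which 6 stayed below 1 CPM, summed to 13.5 to 20.6 CPM. Cartilage and bone markers, 10 in all, summed to 107.6 to 231.3 CPM. The 12 hepatocyte markers summed to 33.8, 34.9 and 39.0 CPM on day 21 and 9.0 and 139.2 on day 34, against 831.8 to 5534 CPM in EPCAM-positive cells. The largest sums were those of the 12 simple epithelial markers, at 969, 1001 and 753 CPM on day 21 and 735 and 1706 on day 34. In EPCAM-positive cells these 12 summed to 6652 to 10665 CPM. Squamous epithelium differed: 10 of its markers, most of them keratins, summed to 2.1, 1.7 and 1.5 CPM on day 21 and to 45.2 and 528.6 CPM on day 34. In EPCAM-positive cells the same sum went from 39.1 to 50.9 CPM on day 21 to 1644 and 2863 CPM on day 34.

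Those keratins were highest in a small set of members. Clusters 7 and 10 of the clustering described further on held at least 3 epithelial markers among their 50 leading genes, and are called keratin-led here. They held 7, 9 and 10 members on day 21, and 115 (5.65%) and 450 (16.6%) on day 34. Cluster 7 held KRT17 at 2564 CPM and the epithelial cadherin CDH1 at 119.7. Of the cells in cluster 7, 23.9% were among those with the highest doublet scores, against 0.119% to 7.06% in the other clusters. For the comparison of days, counts of calls without these clusters are given beside each gene list, and the edgeR adjusted p of named genes that lost their call.

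**Figure D1:**
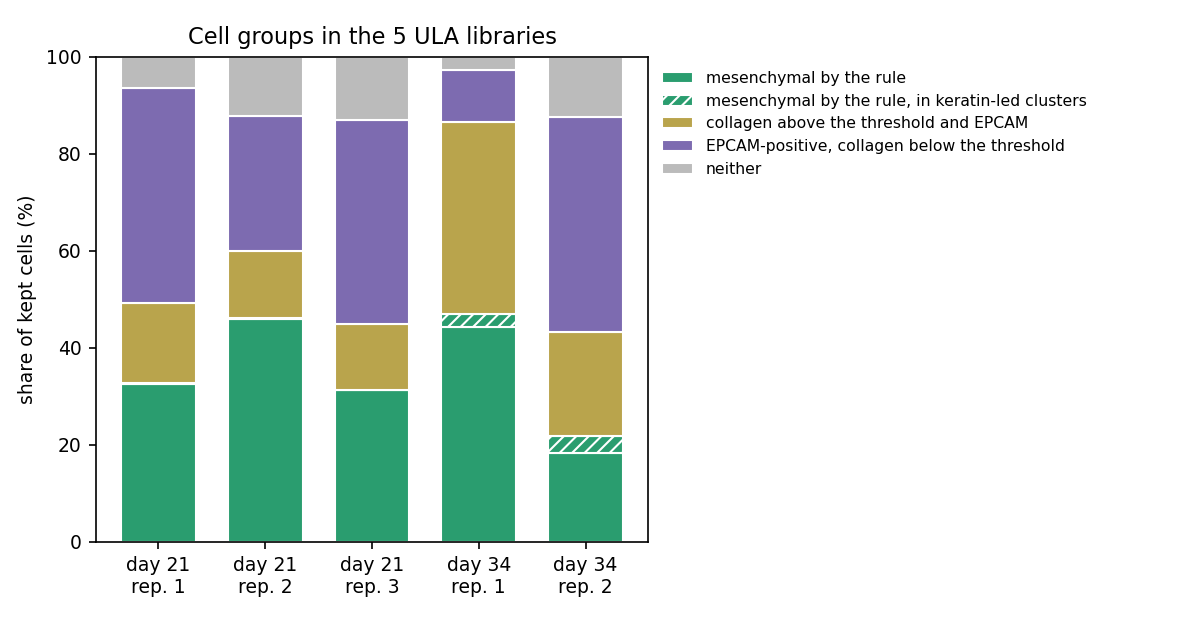
Share of kept cells (y axis, %) in the 4 groups formed by the collagen threshold and EPCAM, for each of the 5 ULA libraries (x axis). The hatched part marks members in keratin-led clusters, which took 5.65% and 16.6% of the members on day 34.

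The share of mesenchymal cells in the organoids overlapped between the days. They were 32.7% (95% Wilson interval 31.5 to 33.9), 46.1% (44.8 to 47.5) and 31.4% (30.2 to 32.5) of kept cells on day 21. On day 34 they were 47.02% (45.5 to 48.5) in replicate 1 and 21.8% (21.1 to 22.6) in replicate 2. These intervals cover counting error alone. The means were 36.7% ± 8.18 (SD, n = 3) and 34.4% ± 17.8 (n = 2), and the difference of -2.30 percentage points had p = 1 in an exact two-sided permutation test over libraries, where 10 splits allow no p below 0.2. The direction turned to 2.41 points without day 21 replicate 2 and to 10.3 points without day 34 replicate 2. Without the EPCAM criterion it was 13.4 points, and under a higher collagen threshold 5.33 points. It was -8.74 points under a stricter cell filter, -5.29 without the keratin-led clusters and -4.50 when cells with CDH1 or CLDN6 were excluded as well as those with EPCAM, so its size and sign depended on the rule. No change of the share was detectable with these libraries.

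The profile of the mesenchymal cells, beside general housekeeping genes, was headed by VIM, the growth factor midkine (MDK) and cytoskeletal genes. MDK stood at 2567, 2949.8 and 2271 CPM on day 21 and 916 and 1342 CPM on day 34. Among genes at 50 CPM or more on average, TAC1, which encodes the precursor of the neuropeptide substance P, had the highest ratio to EPCAM-positive cells at 72.6. Its level was 179, 236 and 189.7 CPM on day 21 and 67.5 and 78.4 CPM on day 34, so the day 21 libraries all lay above the day 34 libraries. The WNT antagonist DKK2 followed with 43.5, then MGP (matrix Gla protein, an inhibitor of calcification) with 42.02. The transcription factors TWIST2, PRRX1, PRRX2 and TBX2 had ratios of 35.3, 29.7, 26.3 and 24.2, the collagen receptor DDR2 27.5, the natriuretic peptide receptor NPR3 31.6, cadherin 11 (CDH11) 25.3 and PDGFRB 24.7. EMILIN1, PTX3, PRPH, LRRC17, CLMP, SUCNR1, DNM3OS and NTM, between 23.5 and 26.1, were also among the 20 highest ratios. Because the rule itself separates the compartments, these ratios are a description.

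Clustering of the mesenchymal cells alone gave 11 clusters, which describe how the cells varied among themselves. On day 21 the same 5 clusters recurred in all 3 libraries. Cluster 0 was led by DNA replication genes such as GINS2, FEN1 and MCM5, and held 35.0%, 31.8% and 38.3% of the members. Cluster 5 was led by mitotic genes such as CDC20 and PLK1, with 15.6%, 17.3% and 16.1%. Cluster 2, led by FILIP1, SUCNR1 and the WNT antagonist SFRP1, held 22.9%, 24.1% and 22.2%. Clusters 4 and 8 shared HOPX, TAC1, PDE1A, RGS5 and TCF21 among their leading genes and held 18.3%, 18.8% and 15.5% (cluster 4) and 7.41%, 6.99% and 6.84% (cluster 8), cluster 8 with mitotic genes such as CCNA2 beside them.

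The day 21 clusters differed along a set of developmental regulators. TCF21, a transcription factor of visceral mesenchyme and stellate cells, stood at 90.1 CPM in cluster 4 and 112 in cluster 8, against 18.4, 15.2 and 14.5 in clusters 0, 2 and 5. COLEC10, a collectin made by stellate cells, stood at 51.1 and 49.3 CPM in clusters 4 and 8 and at 2.03 to 2.95 in clusters 0, 2 and 5. The pericyte gene RGS5 showed the same order, with 189 and 153 CPM in clusters 4 and 8 and 30.5, 26.9 and 18.9 in clusters 0, 2 and 5. TWIST1 went the other way, at 393, 168 and 431 CPM in clusters 0, 2 and 5 and at 94.5 and 107 in clusters 4 and 8. Of 16 stellate and pericyte markers, 2 were among the 50 leading genes of cluster 4 and 1 among those of cluster 8. BAMBI, on the same marker list, was about level. It stood at 316, 307 and 313 CPM in clusters 0, 2 and 5, and at 331 and 305 in clusters 4 and 8. HOXA13, the most posterior gene of its cluster, did not follow this division, with 57.3, 6.21 and 56.8 CPM in clusters 0, 2 and 5 and 25.4 and 49.8 in clusters 4 and 8. These genes entered the clustering, so the contrasts are a description with no test.

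The members of the day 34 libraries lay mostly in other clusters, which differed between these 2 libraries. Cluster 3 held 66.0% of the members of replicate 1 and was led by the metallothioneins MT1X and MT2A, by NDUFA4L2 and by the hypoxia-responsive genes VEGFA and BNIP3. Cluster 1 held 59.0% of the members of replicate 2 and was led by TAGLN, INHBA and NNMT. A cluster mostly of 1 library may be that library and not a cell state. Cluster 6, led by histone genes, took 14.7% and 19.9%. Cluster 9 took 10.2% and 3.46% and was led by ALDH1A1, with the mesothelial regulator WT1 at 60.6 CPM and the matrix protein tenascin C (TNC) at 362. Of 9 mesothelial markers, only 1 was among the 50 leading genes of cluster 9. The mesothelial markers MSLN, UPK3B and LRRN4 stood at 0.173, 0 and 0.173 CPM in cluster 9. Whether cluster 9 is mesothelium was not tested. MGP stood at 729.5, 744 and 697 CPM in clusters 1, 3 and 9, at 277 in cluster 7, and at 84.9 and 11.3 in clusters 6 and 10. In the clusters of day 21 it ranged from 5.63 CPM in cluster 0 to 65.6 in cluster 4. The clustering used genes that differ between days as well, so cluster sizes are a description and were not tested between days.

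**Figure D2:**
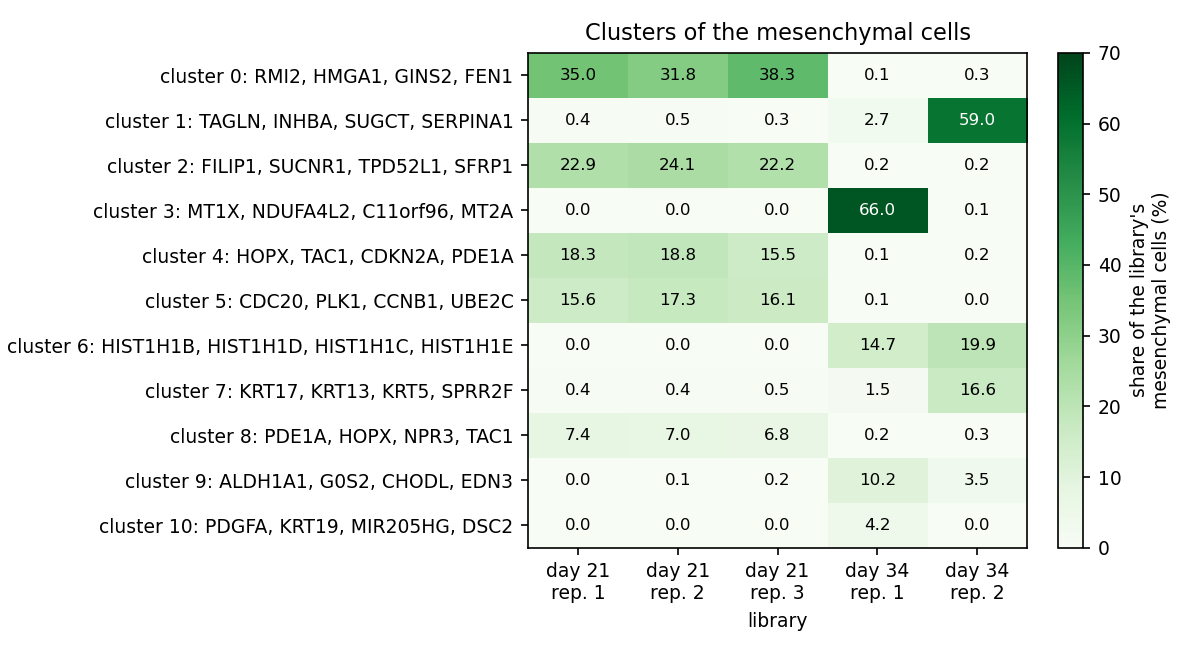
Share of each library's mesenchymal cells (shade and printed number, %) in 11 clusters named by their 4 leading genes (rows), for the 5 libraries (columns). The 3 day 21 columns resemble each other, while clusters 3 and 1 hold 66.0% and 59.0% of the members of day 34 replicates 1 and 2.

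Levels on day 34 were compared with day 21 over libraries, on counts summed over the mesenchymal cells of each. Of 17034 genes tested, 3276 (19.2%) passed an adjusted p of 0.05 in edgeR's quasi-likelihood test with Benjamini-Hochberg adjustment over all genes, from here on the edgeR adjusted p. Of all genes, 1931 (11.3%) were higher and 1345 (7.90%) lower on day 34, and the median log2 fold change was 0.01. For 8633 genes (50.7%) the levels of the days did not overlap. Without the keratin-led clusters 1776 genes were higher and 1243 lower. The count fell to 1168, 1696 and 2129 without day 21 replicates 1, 2 and 3, and was 2928 and 4419 without day 34 replicates 1 and 2. On cells with no UMI of the G2 and mitosis genes the count was 1630. That subset held 448, 578 and 371 cells on day 21 and 685 and 995 on day 34, and 13177 genes were tested. The part of the smaller counts in any change under this setting was not tested. Beside each gene list, the counts of higher and lower members when single libraries were left out are given as a range over the 5 such fits, followed by those without the keratin-led clusters. Fits without a day 34 library compare 1 library with day 21, and its spread is assumed to be that of the day 21 libraries. The 11.3% higher and 7.90% lower over all genes are the background for each list's counts in the day comparison of mesenchymal cells. Where a named gene missed the threshold without 1 library, that library and its edgeR adjusted p (in parentheses) close the paragraph.

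More collagens and other matrix genes were higher than lower on day 34, with 11 of 26 higher, 2 lower and a median log2 fold change of 0.60, beside 11.3% higher and 7.90% lower and a median of 0.01 over all genes. For 23 of the 26 the days did not overlap, as for 50.7% of all genes. The fits without 1 library gave 9 to 17 higher and 0 to 3 lower, and that without the keratin-led clusters 13 higher and 1 lower. The median was 0.35 without day 34 replicate 1. The abundant fibrillar collagen COL1A1 stood at 391, 350.2 and 382 CPM on day 21 and 681 and 474 CPM on day 34, a log2 fold change of 0.49 ± 0.20 (standard error) that did not pass the threshold (edgeR adjusted p = 0.12). FN1 (fibronectin), FBN1 (fibrillin), SPARC, DCN and VCAN did not pass either.

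The matrix genes with the highest fold changes were rare on day 21. Collagen XII, COL12A1 (chr6:75084326-75206267, GRCh38), a collagen that decorates fibrils, stood at 1.17, 1.21 and 2.11 CPM on day 21 and 61.9 and 80.1 CPM on day 34. All day 34 values lay far above all day 21 values, and the log2 fold change was 5.44 ± 0.26 (edgeR adjusted p = 2.17e-05). MGP (chr12:14880864-14885857) stood at 14.2, 20.3 and 21.4 CPM on day 21 and 616 and 501 CPM on day 34, with a log2 fold change of 4.77 ± 0.25 (edgeR adjusted p = 2.66e-05). The small leucine-rich proteoglycan osteoglycin, OGN, rose from 0.213, 0.292 and 0.324 CPM on day 21 to 10.9 and 12.97 CPM on day 34 (5.26 ± 0.29, edgeR adjusted p = 3.41e-05). Its relative ASPN was at 0.0533, 0.0833 and 0.108 CPM on day 21 and 2.86 and 5.83 CPM on day 34, from 1 to 2 UMIs per day 21 library. OGN and ASPN could pass the filter on low counts only through day 34. Their values and their part in the list's counts are a description.

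Other members rose less. COL4A1 stood at 63.3, 47.7 and 74.5 CPM on day 21 and 129.6 and 121 CPM on day 34 (log2 fold change 0.89 ± 0.19, edgeR adjusted p = 0.0137), COL5A1, which nucleates fibrils, at 95.9, 93.4 and 72.4 CPM on day 21 and 246 and 177 CPM on day 34 (1.15 ± 0.20), and biglycan (BGN) at 54.5, 47.6 and 51.2 CPM on day 21 and 137 and 89.4 CPM on day 34 (1.02 ± 0.20). TNC stood at 26.2, 28.9 and 25.05 CPM on day 21 and 212 and 75.9 CPM on day 34, high in both day 34 libraries and highest in replicate 1 (2.30 ± 0.35, edgeR adjusted p = 0.00326). COL6A3, COL14A1 and COL15A1 also rose, by 0.88, 1.60 and 1.96 on the log2 scale. COL4A1 missed the threshold without day 21 replicate 1 (0.0739), and COL6A3 without any 1 of the day 21 libraries (0.0658 to 0.118) or day 34 replicate 1 (0.171).

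Periostin and lumican went the other way. POSTN, a matricellular protein of fibroblasts, stood at 349, 349 and 420.1 CPM on day 21 and 256 and 136 CPM on day 34 and fell by 1.06 on the log2 scale (edgeR adjusted p = 0.0275). LUM stood at 937, 980.4 and 883 CPM on day 21 and 724 and 541 CPM on day 34, a log2 fold change of -0.69 ± 0.21 (edgeR adjusted p = 0.0477), and lost its call without the keratin-led clusters (edgeR adjusted p = 0.0702). Both calls were close to the threshold. POSTN missed the threshold without any 1 of the day 21 libraries (0.0647 to 0.0872) or day 34 replicate 2 (0.0765), and LUM without any 1 of the day 21 libraries (0.0736 to 0.17) or day 34 replicate 2 (0.204).

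Matrix enzymes and their inhibitors had 6 of 18 members higher and 1 lower, with a median of 0.75. The fits without 1 library gave 3 to 13 higher and 1 to 2 lower, and that without the keratin-led clusters 7 higher and 1 lower. The median was 0.15 without day 34 replicate 1 and 1.11 without replicate 2, and with no filter on low counts 12 were higher. MMP14, a membrane-bound collagenase, stood at 13.9, 16.2 and 11.98 CPM on day 21 and 47.2 and 42.9 CPM on day 34 (1.54 ± 0.18, edgeR adjusted p = 0.00103). The metalloproteinase inhibitors TIMP3 and TIMP2 rose by 1.10 and 0.82 on the log2 scale, TIMP3 from 54.97, 53.5 and 53.7 CPM on day 21 to 135 and 118 CPM on day 34. PCOLCE, an enhancer of procollagen processing, fell, from 455, 472 and 426 CPM on day 21 to 254 and 198 CPM on day 34 (-1.13 ± 0.20, edgeR adjusted p = 0.00561). TIMP2 missed the threshold without day 21 replicate 1 (0.077) or 3 (0.0513).

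For TIMP1 and PLOD1 the call rested on day 34 replicate 1. TIMP1 stood at 568, 704 and 527 CPM on day 21 and 2928 and 940.0 CPM on day 34, and without that library the log2 fold change was 0.51 with an edgeR adjusted p of 0.204. The crosslinking and hydroxylating enzymes LOX, LOXL2, P4HA1, P4HA2 and PLOD2 did not pass. LOX, for example, stood at 18.3, 19.8 and 16.4 CPM on day 21 and 66.1 and 21.6 CPM on day 34, high in replicate 1 and near day 21 in replicate 2. Over the list, 4 members were higher without day 34 replicate 1 and 13 without replicate 2. TIMP1 missed the threshold without any 1 of the day 21 libraries (0.0578 to 0.11), and PLOD1 without any 1 of the day 21 libraries (0.0898 to 0.122) or day 34 replicate 1 (0.347).

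Contractile genes, which mark smooth muscle and activated stellate cells, had 5 of 12 members higher and 0 lower, with a median of 0.72. Without single libraries the counts were 3 to 6 higher and 0 to 1 lower, without the keratin-led clusters 7 higher and 0 lower, and with no filter on low counts 8 higher and 0 lower. ACTA2, smooth muscle actin, stood at 15.1, 13.2 and 13.1 CPM on day 21 and 41.3 and 38.4 CPM on day 34 (1.40 ± 0.15, edgeR adjusted p = 0.000763). Both day 34 libraries were above the highest day 21 library, and close to each other. TAGLN, an actin-binding protein, stood at 83.1, 83.9 and 70.7 CPM on day 21 and 231 and 775 CPM on day 34 (2.52 ± 0.40, edgeR adjusted p = 0.00357), with replicate 2 far above replicate 1. MYL9 and CNN1 rose by 1.36 and 0.81 on the log2 scale, and ACTG2, an actin of gut smooth muscle, by 1.64. MYH11, the myosin of mature smooth muscle, stayed below 1 CPM in all libraries. Desmin (DES) was at 24.8, 24.6 and 15.9 CPM on day 21 and 74.6 and 9.02 CPM on day 34, and the days overlapped. The rise was not particular to mesenchymal cells. In EPCAM-positive cells 4 of the 12 contractile genes were higher on day 34 and 0 lower, with a median of 0.98. CNN1 missed the threshold without any 1 of the day 21 libraries (0.0564 to 0.0724), and ACTG2 without any 1 of the day 21 libraries (0.0627 to 0.127) or day 34 replicate 2 (0.178).

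Stellate and pericyte markers split, with 3 of 15 tested higher, 5 lower and a median of -0.26. Leaving out single libraries gave 2 to 4 higher and 4 to 8 lower, and leaving out the keratin-led clusters 3 higher and 5 lower. The median was -0.998 without day 34 replicate 1, -0.13 without day 21 replicate 2, -0.45 without the keratin-led clusters and -0.42 under the higher collagen threshold. PDGFRB stood at 56.4, 48.2 and 58.2 CPM on day 21 and 138 and 109.8 CPM on day 34 (1.06 ± 0.17, edgeR adjusted p = 0.00371). The pericyte proteoglycan CSPG4 rose from 1.70, 1.42 and 1.35 CPM on day 21 to 7.09 and 6.31 CPM on day 34 (2.04 ± 0.25), and PTH1R, a parathyroid hormone receptor, by 0.84 on the log2 scale. BAMBI, a decoy receptor for TGF-β that quiescent stellate cells carry, stood at 371, 289.6 and 293 CPM on day 21 and 77.2 and 78.2 CPM on day 34 (-2.16 ± 0.19, edgeR adjusted p = 0.000271), and every day 21 library was above every day 34 library. PTH1R missed the threshold without day 21 replicate 2 (0.0517).

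The collectins COLEC10 and COLEC11 and the pericyte gene RGS5 fell as well. COLEC10 stood at 17.3, 12.7 and 17.3 CPM on day 21 and 4.60 and 2.08 CPM on day 34 (-2.30 ± 0.32, edgeR adjusted p = 0.00201) and RGS5 at 58.9, 63.3 and 80.9 CPM on day 21 and 17.4 and 12.6 CPM on day 34 (-2.30 ± 0.23, edgeR adjusted p = 0.000475). LRAT, which esterifies retinol for storage and defines quiescent stellate cells, was at 0.107, 0.208 and 0.270 CPM on day 21 and 0.932 and 0.0694 CPM on day 34, too low to be tested. HAND2, RELN, NGFR, CYGB, ECM1, HGF and LHX2 did not pass the threshold. BAMBI, COLEC10, COLEC11 and RGS5 kept their calls without the keratin-led clusters. COLEC11 missed the threshold without any 1 of the day 21 libraries (0.0546 to 0.0666).

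Among 13 fibroblast markers, 7 passed the filter on low counts, and of these 4 were higher and 0 lower (3 to 4 higher and 0 lower without single libraries, 5 and 0 without the keratin-led clusters). THY1 stood at 92.8, 81.01 and 82.2 CPM on day 21 and 122 and 174 CPM on day 34 (0.66 ± 0.18, edgeR adjusted p = 0.0339), SLIT2, a guidance cue, at 11.5, 10.7 and 16.4 CPM on day 21 and 41.5 and 30.04 CPM on day 34 (1.35 ± 0.23), and S100A4 at 49.96, 43.5 and 42.8 CPM on day 21 and 194 and 154 CPM on day 34 (1.81 ± 0.17). Growth arrest-specific 6, GAS6, rose by 2.21 on the log2 scale. DPT, CD34, PI16, MFAP5 and ENTPD2, markers of adult universal or portal fibroblasts, were each below 1 CPM in every library, and CLEC3B had 0 UMIs. The mesothelial markers MSLN, UPK3B and LRRN4 were likewise below 1 CPM, and PDPN alone of the 6 tested, out of 9, rose (0.96), with 0 to 2 higher and 0 lower without single libraries, 1 and 0 without the keratin-led clusters. THY1 missed the threshold without any 1 of the day 21 libraries (0.0835 to 0.112) or day 34 replicate 2 (0.183), and PDPN without any 1 of the day 21 libraries (0.0552 to 0.062) or day 34 replicate 1 (0.0578).

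Of 26 mesenchymal transcription factors tested, 3 were higher, a share near the 11.3% of all genes, and 8 lower, beside 7.90% of all genes, with a median of -0.37. The fits without 1 library gave 2 to 7 higher and 2 to 9 lower, and that without the keratin-led clusters 5 higher and 7 lower. The median was -0.11 without day 34 replicate 2 and -0.24 without day 21 replicate 3. TWIST2 stood at 45.3, 41.9 and 42.2 CPM on day 21 and 136 and 224 CPM on day 34 (1.92 ± 0.21, edgeR adjusted p = 0.000694) and PRRX1, a factor of limb and craniofacial mesenchyme, at 197, 155 and 200.3 CPM on day 21 and 398 and 406 CPM on day 34 (1.00 ± 0.17, edgeR adjusted p = 0.00554). PRRX2 rose by 0.99. Both day 34 libraries were above every day 21 library for all 3 genes. PRRX2 missed the threshold without any 1 of the day 21 libraries (0.0509 to 0.0768) or day 34 replicate 1 (0.108).

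Factors of visceral and cardiac mesoderm were among those that fell. HAND1 stood at 37.7, 33.5 and 35.2 CPM on day 21 and 2.98 and 6.31 CPM on day 34 (-3.12 ± 0.29, edgeR adjusted p = 0.000388). GATA4, a zinc finger factor of heart and liver mesenchyme, stood at 4.31, 4.12 and 3.35 CPM on day 21 and 0.752 and 0.0694 CPM on day 34 (-3.12 ± 0.56) and GATA6 at 40.2, 32.2 and 47.2 CPM on day 21 and 21.9 and 5.83 CPM on day 34 (-1.61 ± 0.44, edgeR adjusted p = 0.0347). FOXF1, a hedgehog target of gut and liver mesenchyme, stood at 15.4, 12.2 and 13.4 CPM on day 21 and 8.24 and 2.91 CPM on day 34 (-1.36 ± 0.36, edgeR adjusted p = 0.0289), and HLX, needed for liver and gut growth, at 20.7, 20.1 and 15.8 CPM on day 21 and 9.11 and 3.05 CPM on day 34 (-1.71 ± 0.38). In each of these 5 genes the days did not overlap. GATA4 could pass the filter on low counts only through day 21, so its call is a description. ISL1, PITX1 and MSX2 fell by 0.67, 0.91 and 0.92 on the log2 scale, and PITX1 lost its call without the keratin-led clusters (edgeR adjusted p = 0.0905). TCF21 was at 41.5, 43.4 and 30.2 CPM on day 21 and 23.8 and 4.16 CPM on day 34, lowest in day 34 replicate 2, and did not pass (edgeR adjusted p = 0.0775). GATA6 missed the threshold without any 1 of the day 21 libraries (0.067 to 0.12), FOXF1 without any 1 of the day 21 libraries (0.0677 to 0.105), and HLX without any 1 of the day 21 libraries (0.0506 to 0.0624). ISL1 missed the threshold without day 21 replicate 1 (0.112) or day 34 replicate 1 (0.0527) or day 34 replicate 2 (0.0578), PITX1 without any 1 of the day 21 libraries (0.0804 to 0.145) or day 34 replicate 1 (0.141), and MSX2 without day 21 replicate 1 (0.0836) or 3 (0.0566).

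**Figure D3:**
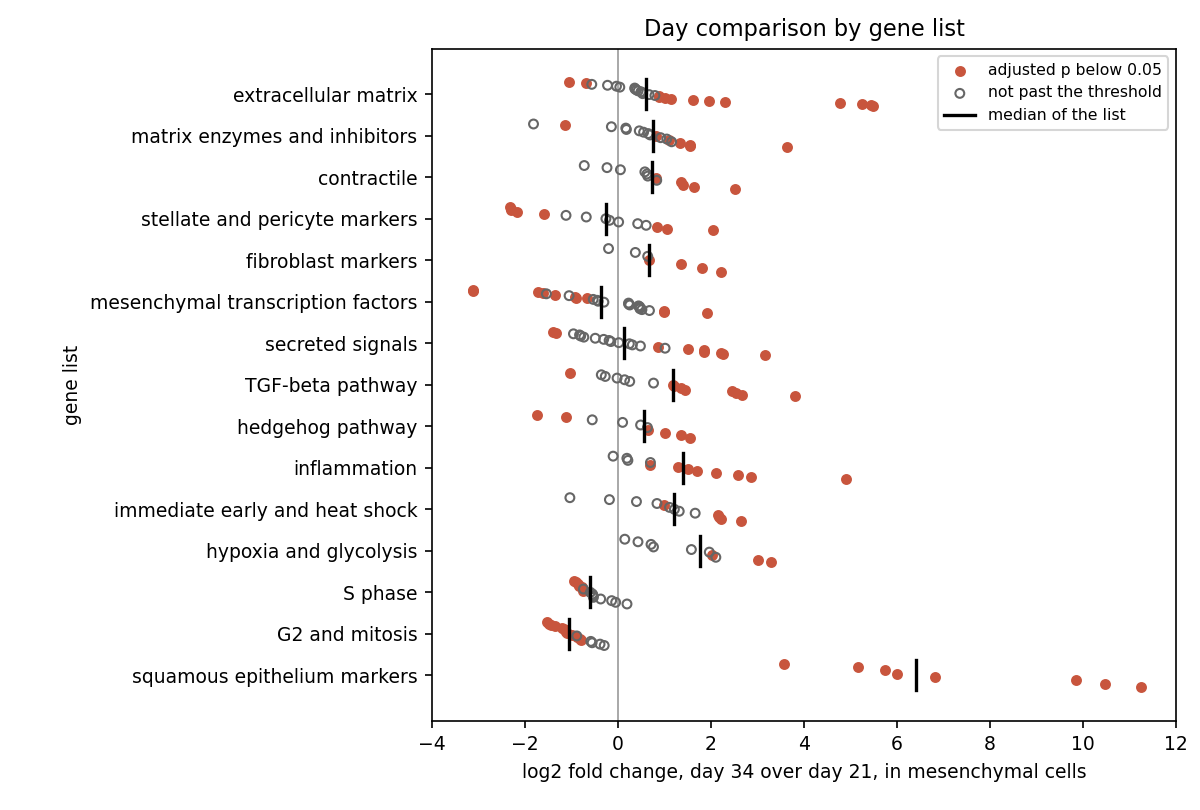
Log2 fold change of day 34 over day 21 in mesenchymal cells (x axis) for the tested members of 15 gene lists (y axis), filled where the edgeR adjusted p was below 0.05, with the list's median as a bar. Matrix, TGF-beta and inflammation members lie mostly above 0, and G2 and mitosis members below it with a median of -1.05.

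Signals that the mesenchyme secretes were next. Of 22 tested, 7 were higher and 2 lower, with a median of 0.13. Without single libraries the counts were 5 to 9 higher and 1 to 8 lower, and without the keratin-led clusters 7 higher and 2 lower. The median turned to -0.26 without day 34 replicate 1, to -0.02 without the keratin-led clusters, to -0.05 under the higher collagen threshold, and was 0.25 without day 34 replicate 2. With no filter on low counts 8 were higher and 6 lower. WNT2, a mesenchymal WNT ligand of lung and liver, stood at 7.99, 6.33 and 4.64 CPM on day 21 and 39.1 and 27.3 CPM on day 34 (2.27 ± 0.24, edgeR adjusted p = 0.000695). RSPO3, which strengthens WNT signalling and comes from endothelium and stellate cells in adult liver, stood at 19.2, 13.3 and 19.97 CPM on day 21 and 83.96 and 52.8 CPM on day 34 (1.84 ± 0.24, edgeR adjusted p = 0.00145). IGF1 stood at 45.8, 41.4 and 46.1 CPM on day 21 and 131 and 145 CPM on day 34 (1.50 ± 0.15, edgeR adjusted p = 0.000463) and the BMP antagonist GREM1 at 15.8, 13.7 and 14.7 CPM on day 21 and 80.4 and 69.8 CPM on day 34 (2.22 ± 0.15, edgeR adjusted p = 0.000115). WNT5A rose by 0.87. For these 5 genes both day 34 libraries were above the 3 day 21 libraries. WNT5A missed the threshold without day 21 replicate 1 (0.0549).

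PDGFA, the ligand of PDGFRA, rose as well but is high in keratin-led cells. It stood at 4.10, 2.87 and 4.16 CPM on day 21 and 39.3 and 32.9 CPM on day 34, with a log2 fold change of 3.16 on all members and 2.08 without the keratin-led clusters (edgeR adjusted p = 0.000354). IGFBP5 stood at 776, 532 and 781 CPM on day 21 and 4500.2 and 939 CPM on day 34, high in replicate 1, and had an edgeR adjusted p of 0.496 without that library. MDK fell by 1.34 and SFRP1 by 1.40 on the log2 scale. SFRP1 stood at 1492, 1068 and 1760.4 CPM on day 21 and 888 and 296 CPM on day 34, with day 34 replicate 2 the lowest. HGF, BMP4, BMP5, CXCL12, FGF7, PTN and IGF2 did not pass. IGFBP5 missed the threshold without any 1 of the day 21 libraries (0.109 to 0.115), and SFRP1 without any 1 of the day 21 libraries (0.0703 to 0.143) or day 34 replicate 2 (0.0671).

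The TGF-β pathway drives matrix production in stellate cells, and 8 of its 15 listed genes were higher, 1 lower, with a median of 1.17. Leaving out single libraries gave 5 to 10 higher and 1 to 2 lower, and leaving out the keratin-led clusters 8 higher and 1 lower. The median was 0.67 without day 34 replicate 1. The ligand TGFB1 itself was the member that fell, from 45.2, 40.8 and 32.7 CPM on day 21 to 19.9 and 22.6 CPM on day 34 (-1.03 ± 0.18, edgeR adjusted p = 0.00619). TGFB3 rose by 1.21. INHBA, the activin A subunit, stood at 11.8, 8.16 and 13.1 CPM on day 21 and 113 and 223 CPM on day 34 (3.80 ± 0.29, edgeR adjusted p = 0.000165). The receptors TGFBR1, TGFBR2 and TGFBR3 and the inhibitors SMAD7 and SKIL did not pass. EPCAM-positive cells also had 8 of the 15 genes higher on day 34, and 0 lower, with a median of 0.78. TGFB3 missed the threshold without any 1 of the day 21 libraries (0.0593 to 0.0634) or day 34 replicate 1 (0.0856).

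Among the members that rose were matrix-bound proteins and some target genes. TGFBI, a matrix protein induced by TGF-β, stood at 132, 116 and 134 CPM on day 21 and 332 and 297 CPM on day 34 (1.17 ± 0.16, edgeR adjusted p = 0.00196), and PMEPA1, a feedback inhibitor, at 21.4, 13.2 and 22.6 CPM on day 21 and 45.5 and 67.8 CPM on day 34 (1.44 ± 0.24). CTGF, a target of YAP as well as of TGF-β, stood at 30.5, 18.7 and 27.2 CPM on day 21 and 177 and 128 CPM on day 34 (2.46 ± 0.22, edgeR adjusted p = 0.00032). Its relative CYR61 stood at 48.8, 18.7 and 45.2 CPM on day 21 and 274 and 200.3 CPM on day 34 (2.54 ± 0.34, edgeR adjusted p = 0.00172), so both were highest in day 34 replicate 1. The latent TGF-β binding proteins LTBP1 and LTBP2 rose by 1.36 and 2.66, LTBP2 from 0.107, 0.208 and 0.378 CPM on day 21 to 1.08 and 2.29 CPM on day 34. LTBP2 could pass the filter on low counts only through day 34, so its call is a description. LTBP1 missed the threshold without day 21 replicate 1 (0.0629), and LTBP2 without day 21 replicate 1 (0.0572) or 2 (0.0503).

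In the hedgehog pathway, which epithelial ligands direct at the mesenchyme, 4 of 10 tested genes were higher and 2 lower (2 to 4 higher and 2 to 4 lower without single libraries, 4 and 2 without the keratin-led clusters). The target genes PTCH1 and HHIP fell. PTCH1, receptor and feedback inhibitor, stood at 71.7, 62.4 and 74.98 CPM on day 21 and 36.5 and 33.99 CPM on day 34 (-1.11 ± 0.16, edgeR adjusted p = 0.00233) and HHIP at 85.3, 96.6 and 80.6 CPM on day 21 and 24.6 and 33.4 CPM on day 34 (-1.74 ± 0.20, edgeR adjusted p = 0.000829). GLI1, a further target, was at 11.3, 10.4 and 11.7 CPM on day 21 and 6.58 and 10.3 CPM on day 34 and did not pass (edgeR adjusted p = 0.109). The co-receptors CDON, GAS1 and BOC rose by 1.55, 1.35 and 1.01, and the effector GLI2 by 0.65. The ligand SHH was an EPCAM-positive gene, at 37.2, 40.8 and 35.5 CPM on day 21 and 7.29 and 5.88 CPM on day 34 in those cells, where it fell by 2.70 on the log2 scale (edgeR adjusted p = 0.000112). BOC missed the threshold without any 1 of the day 21 libraries (0.053 to 0.0793) or day 34 replicate 1 (0.0777), and GLI2 without any 1 of the day 21 libraries (0.052 to 0.096) or day 34 replicate 1 (0.0558).

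Most mitotic genes were lower on day 34, with 13 of 18 G2 and mitosis genes lower and 0 higher, and a median of -1.05. Without single libraries the counts were 0 higher and 10 to 16 lower, and without the keratin-led clusters 0 higher and 12 lower. CDK1 stood at 162, 178 and 158 CPM on day 21 and 63.6 and 71.2 CPM on day 34 (-1.44 ± 0.17, edgeR adjusted p = 0.00106) and cyclin B2 (CCNB2) at 145, 148 and 126 CPM on day 21 and 50.2 and 59.5 CPM on day 34 (-1.49 ± 0.17, edgeR adjusted p = 0.000992). The day 34 libraries were both lower than the 3 day 21 libraries. MKI67 did not pass, at 145, 89.6 and 171 CPM on day 21 and 115 and 126 CPM on day 34. Of 15 S phase genes, 6 were lower and 0 higher, but 1 was lower without day 34 replicate 1 and 10 without replicate 2 (0 higher and 0 to 10 lower without single libraries, 0 and 4 without the keratin-led clusters). It was 10 with no filter on low counts, 1 under the higher collagen threshold, 3 when CDH1 and CLDN6 were excluded too, and 0 on cells with no G2 or mitosis UMI. PCNA, the sliding clamp of DNA replication, was at 120.5, 122 and 123 CPM on day 21 and 58.6 and 98.6 CPM on day 34, lowest in replicate 1. Without the keratin-led clusters its edgeR adjusted p was 0.0521. CDH1 missed the threshold without day 21 replicate 1 (0.0511) or 3 (0.0667), CLDN6 without any 1 of the day 21 libraries (0.119 to 0.146) or day 34 replicate 2 (0.696), and PCNA without any 1 of the day 21 libraries (0.0895 to 0.116) or day 34 replicate 1 (0.21).

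A share of cycling cells was computed as members with at least 3 UMIs over both lists after thinning each cell to 5000 UMIs. It was 72.4%, 69.5% and 75.2% on day 21 and 44.5% and 69.2% on day 34, with means of 72.3% ± 2.82 (SD, n = 3) and 56.8% ± 17.5 (n = 2). The difference of -15.5 points had p = 0.2 in the exact two-sided permutation test, the smallest p that 3 against 2 libraries allow. Without day 34 replicate 1 it was -3.18 points, so at this thinning its size rests on that library. Thinning left out 133, 143 and 164 members on day 21, and 61 and 1531 of 2715 on day 34. Unthinned shares were 79.7%, 78.7% and 80.5% on day 21 and 70.4% and 64.3% on day 34. Thinned to 3000 UMIs, which left out 25 and 481 members on day 34, day 34 replicate 2 also lay below day 21. The shares were then 64.5%, 61.8% and 67.4% on day 21 and 35.1% and 57.9% on day 34. In EPCAM-positive cells the share after thinning to 5000 UMIs was 76.2%, 75.5% and 77.9% on day 21 and 29.6% and 65.0% on day 34. It was thus lowest in day 34 replicate 1 as well.

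Cell cycle inhibitors did not move as 1 group, with 3 of 8 higher and 1 lower (3 to 4 higher and 1 lower without single libraries, 3 and 1 without the keratin-led clusters). CDKN1A (p21) stood at 9.32, 7.41 and 10.4 CPM on day 21 and 26.4 and 36.5 CPM on day 34 (1.66 ± 0.20, edgeR adjusted p = 0.00121), and GADD45A rose by 1.00. CDKN2A, which encodes p16 and ARF, fell from 20.99, 20.7 and 14.3 CPM on day 21 to 2.50 and 3.19 CPM on day 34 (-2.87 ± 0.26, edgeR adjusted p = 0.000302).

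Chemokines and NF-κB genes had 8 of 12 tested members higher and 0 lower, with a median of 1.40 (5 to 8 higher and 0 to 1 lower without single libraries, 8 and 0 without the keratin-led clusters). CCL2, the monocyte attractant that stellate cells release, stood at 20.1, 21.1 and 20.6 CPM on day 21 and 60.9 and 49.9 CPM on day 34 (1.29 ± 0.16, edgeR adjusted p = 0.0013). The neutrophil attractants CXCL1, CXCL2 and CXCL3 rose by 2.12, 2.86 and 2.59 on the log2 scale. CXCL1 was at 4.15, 2.50 and 2.43 CPM on day 21 and 17.6 and 10.8 CPM on day 34, and CXCL2 at 6.87, 2.37 and 4.53 CPM on day 21 and 57.4 and 13.5 CPM on day 34, highest in day 34 replicate 1. CXCL8 was at 0.213, 0.0417 and 0 CPM on day 21 and 2.98 and 2.71 CPM on day 34, from 0 to 4 UMIs per day 21 library. It could pass the filter on low counts only through day 34, so its part in the list's counts is a description. IL32 rose by 1.69 (edgeR adjusted p = 0.00186). NFKBIA, ICAM1 and VCAM1 did not pass, and the NF-κB targets TNFAIP3 and SOD2 rose by 1.51 and 0.70. The list rose in EPCAM-positive cells too, with 7 of 12 tested members higher and 1 lower, and a median of 1.36. CXCL2 missed the threshold without day 21 replicate 3 (0.0589), TNFAIP3 without any 1 of the day 21 libraries (0.0676 to 0.0736) or day 34 replicate 1 (0.0914), and SOD2 without any 1 of the day 21 libraries (0.0881 to 0.132) or day 34 replicate 1 (0.288).

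Immediate early genes, which cells switch on within minutes of serum, stretch or dissociation, were listed together with heat shock genes, and 5 of these 13 were higher and 0 lower (2 to 9 higher and 0 lower without single libraries, 4 and 0 without the keratin-led clusters). With no filter on low counts 10 were higher and 1 lower. Their levels spread widely among the day 21 libraries. EGR1 stood at 60.9, 20.3 and 83.7 CPM on day 21 and 319 and 213 CPM on day 34 (2.16 ± 0.45, edgeR adjusted p = 0.012), with day 21 replicate 2 the lowest. FOS was at 185, 41.4 and 238 CPM on day 21 and 754 and 305 CPM on day 34 and did not pass (edgeR adjusted p = 0.0806). IER3 and ATF3 rose by 2.20 and 2.18 (edgeR adjusted p = 0.00099 and 0.000924), and ZFP36 by 2.65. JUN rose by 0.99, a call lost without the keratin-led clusters (edgeR adjusted p = 0.101). The heat shock genes HSPA1A and HSPA1B, near-identical copies whose reads may be shared, did not pass. Of the same 13 genes, 8 were higher and 0 lower on day 34 in EPCAM-positive cells, with a median of 1.58. The longer trypsin step moves with the day here as elsewhere and cannot be told apart from it. EGR1 missed the threshold without day 21 replicate 1 (0.0534), ZFP36 without day 21 replicate 1 (0.0521), and JUN without any 1 of the day 21 libraries (0.0635 to 0.0792) or day 34 replicate 1 (0.0969).

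EGR1 is a target of serum response factor, which binds the CArG box, and its promoter is printed to show 2 such boxes. Promoters were taken from RefSeq on GRCh38.p14 as windows from 250 bases before to 50 after the start, and the 250 bases before the start are given 5′ to 3′, with motif matches in capitals. The CArG box was found on either strand in 1.29% of all 35116 promoters, and in 1 of the 15 promoters in that table of listed immediate early and heat shock genes, that of EGR1. A match is a description and does not show that the factor binds there. The EGR1 window is chr5:138465229-138465478 on the plus strand.
EGR1: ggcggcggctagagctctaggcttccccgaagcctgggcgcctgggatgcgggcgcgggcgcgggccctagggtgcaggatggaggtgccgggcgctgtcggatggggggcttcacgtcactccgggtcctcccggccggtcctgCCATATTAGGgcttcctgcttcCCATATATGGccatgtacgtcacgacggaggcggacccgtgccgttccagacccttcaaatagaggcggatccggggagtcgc

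Hypoxia and glycolysis genes were high in 1 library of day 34 and not in the other. Of 10 tested, 3 were higher and 0 lower on both libraries together, 0 without replicate 1 and 10 without replicate 2 (0 to 10 higher and 0 lower without single libraries, 2 and 0 without the keratin-led clusters), and with no filter on low counts 8 were higher. BNIP3, a mitophagy receptor induced by HIF, stood at 50.9, 97.00 and 46.2 CPM on day 21 and 573 and 36.8 CPM on day 34. Day 34 replicate 1 was the highest of the 5 libraries and day 34 replicate 2 the lowest. LDHA, lactate dehydrogenase A, stood at 313, 490.4 and 314 CPM on day 21 and 1089 and 247 CPM on day 34, again with replicate 2 the lowest, and VEGFA at 27.00, 29.4 and 21.2 CPM on day 21 and 199 and 20.1 CPM on day 34. NDRG1, ADM and SLC2A1, the 3 called members, thus rested on replicate 1 and had edgeR adjusted p of 0.0917, 0.27 and 0.13 without replicate 1. SLC2A1 also missed the threshold without the keratin-led clusters (0.0914). EPCAM-positive cells of the same libraries showed the same order for BNIP3, at 166, 433 and 143 CPM on day 21 and 454 and 25.9 CPM on day 34. NDRG1 missed the threshold without day 21 replicate 1 (0.072) or 3 (0.0886), ADM without any 1 of the day 21 libraries (0.062 to 0.0925), and SLC2A1 without any 1 of the day 21 libraries (0.0509 to 0.102).

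HIF binds the core ACGTG, and the promoters of BNIP3 and LDHA are printed as members of the list that hold it. The motif was searched as ACGTG on both strands, so its reverse complement CACGT counts as well, and CACGTG holds both. It was present in 21.4% of all 35116 promoters. Of the 13 promoters in the table of listed genes, 8 had it (those of ALDOA, BNIP3, CA9, LDHA, PDK1 and PGK1). BNIP3 has 1 stretch of matches and LDHA 3, shown in capitals. BNIP3 is chr10:131981924-131982173 on the minus strand and LDHA chr11:18394313-18394562 on the plus strand.
BNIP3: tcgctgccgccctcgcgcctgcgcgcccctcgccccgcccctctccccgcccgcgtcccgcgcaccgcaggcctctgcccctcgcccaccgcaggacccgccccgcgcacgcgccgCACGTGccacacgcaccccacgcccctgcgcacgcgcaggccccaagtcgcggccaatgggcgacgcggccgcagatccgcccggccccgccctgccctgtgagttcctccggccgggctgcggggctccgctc
LDHA: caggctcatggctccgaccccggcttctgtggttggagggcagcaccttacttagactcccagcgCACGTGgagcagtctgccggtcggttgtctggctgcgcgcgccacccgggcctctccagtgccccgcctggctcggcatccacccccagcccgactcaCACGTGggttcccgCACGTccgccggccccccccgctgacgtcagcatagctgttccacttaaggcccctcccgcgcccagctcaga

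**Figure D4:**
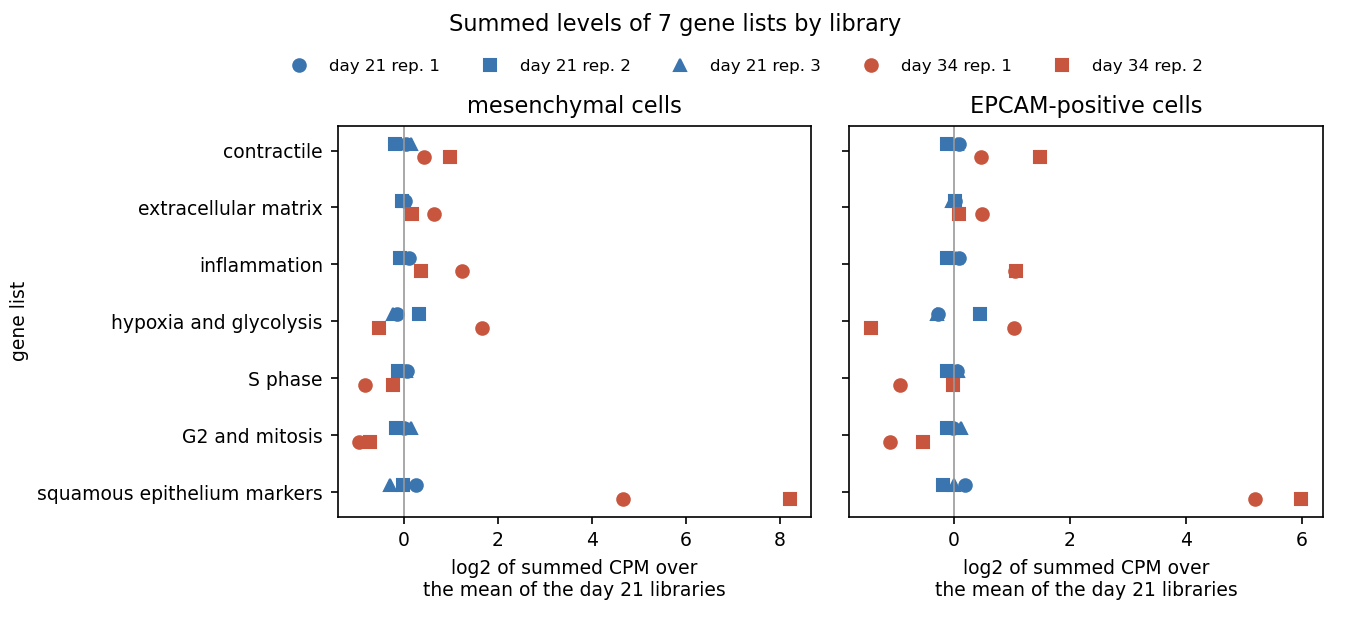
Log2 of the summed CPM of 7 gene lists in each library over the mean of the day 21 libraries (x axis) for mesenchymal (left) and EPCAM-positive cells (right), 1 point per library. The hypoxia list puts the day 34 libraries on either side of day 21 in both cell groups, and the squamous markers put both far to the right.

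Among the markers of other cell types in mesenchymal cells, 0 of 7 tested hepatocyte genes and 2 of 6 gut genes (LGALS4 and FABP1, both lower) passed. Hepatocyte genes had 0 to 5 higher and 0 to 5 lower without single libraries, 0 and 0 without the keratin-led clusters, and their sum, given above, was below day 21 in day 34 replicate 1 and above it in replicate 2. Gut genes had 0 higher and 1 to 6 lower without single libraries, 0 and 1 without the keratin-led clusters, where FABP1 had an edgeR adjusted p of 0.0559. The gut sum was 27.8 to 32.4 CPM on day 21 and 1.3 and 16.1 on day 34. Endothelial markers summed to 53.7 to 65.0 CPM on day 21 and 143.9 and 81.2 on day 34, with ERG and EMCN higher and TEK lower of 5 tested (1 to 4 higher and 0 to 1 lower without single libraries, 3 and 1 without the keratin-led clusters). Neural markers summed to 29.5 to 30.4 CPM on day 21 and 119.2 and 27.2 on day 34. Most of the first day 34 value was STMN2, a neuronal microtubule protein, at 9.27, 10.7 and 6.59 CPM on day 21 and 96.7 and 18.5 CPM on day 34 (2.58 ± 0.54), and DCX was lower. Neural genes had 0 to 2 higher and 1 to 2 lower without single libraries, 1 and 1 without the keratin-led clusters. Of 4 leukocyte genes tested 1 was higher, AIF1 (1 higher and 0 to 2 lower without single libraries, 1 and 0 without the keratin-led clusters). Of 5 muscle genes 1 was lower, NKX2-5 (0 higher and 0 to 1 lower without single libraries, 0 and 1 without the keratin-led clusters). FABP1 missed the threshold without any 1 of the day 21 libraries (0.0909 to 0.126), EMCN without any 1 of the day 21 libraries (0.0679 to 0.102) or day 34 replicate 1 (0.164), and TEK without any 1 of the day 21 libraries (0.0886 to 0.162) or day 34 replicate 2 (0.0826). STMN2 missed the threshold without day 21 replicate 1 (0.0549) or 3 (0.0743), and NKX2-5 without day 21 replicate 1 (0.104) or 2 (0.0647) or day 34 replicate 1 (0.0567).

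Cartilage and bone markers had SOX9, COL11A1 and RUNX2 higher and COL2A1 lower of 6 tested (1 to 3 higher and 1 to 3 lower without single libraries, 2 and 1 without the keratin-led clusters), and 1 was higher under a stricter cell filter and 0 on cells with no G2 or mitosis UMI. SOX9 had an edgeR adjusted p of 0.064 without the keratin-led clusters. RUNX2, a factor of bone formation, stood at 4.69, 6.96 and 4.91 CPM on day 21 and 14.7 and 14.6 CPM on day 34. Of 4 tested genes of pluripotent and germ cells, LIN28A and DPPA4 were lower and NANOS3 higher (0 to 2 higher and 2 lower without single libraries, 1 and 2 without the keratin-led clusters). LIN28A, an RNA-binding protein of embryonic tissue that blocks let-7 maturation, stood at 3.99, 3.21 and 4.75 CPM on day 21 and 0.0902 and 0.0694 CPM on day 34 (-5.60 ± 0.46, edgeR adjusted p = 0.00024), and fell in EPCAM-positive cells too (edgeR adjusted p = 0.000624). In mesenchymal cells LIN28A could pass the filter on low counts only through day 21, so its call there is a description. Simple epithelial markers had 6 of 12 higher and 0 lower (2 to 9 higher and 0 to 2 lower without single libraries, 3 and 2 without the keratin-led clusters), and 3 higher when cells with CDH1 or CLDN6 were excluded. Squamous markers had 8 of 8 tested higher (6 to 8 higher and 0 lower without single day 21 libraries, 5 and 0 without the keratin-led clusters, where KRT13 and KRT15 were not tested). All 10 squamous markers together summed to 2.13, 1.75 and 1.46 CPM on day 21. Most could therefore pass the filter on low counts only through day 34, and the count of 8 of 8 is a description. Of 10 sterol synthesis genes 0 were higher and 2 lower, FDPS and DHCR7 (0 higher and 0 to 2 lower without single libraries, 0 and 1 without the keratin-led clusters, where FDPS had an edgeR adjusted p of 0.0667). The part of these other cell types in the day effects was not tested. SOX9 missed the threshold without any 1 of the day 21 libraries (0.0505 to 0.137) or day 34 replicate 1 (0.169), COL11A1 without any 1 of the day 21 libraries (0.122 to 0.141) or day 34 replicate 1 (0.468), and NANOS3 without day 21 replicate 1 (0.0733) or 3 (0.076). CDH1 missed the threshold without day 21 replicate 1 (0.0511) or 3 (0.0667), CLDN6 without any 1 of the day 21 libraries (0.119 to 0.146) or day 34 replicate 2 (0.696), and FDPS without day 21 replicate 1 (0.205) or 2 (0.12) or day 34 replicate 1 (0.19) or day 34 replicate 2 (0.0536). DHCR7 missed the threshold without day 21 replicate 1 (0.17) or 2 (0.0705) or day 34 replicate 1 (0.13) or day 34 replicate 2 (0.0562).

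Over all genes, the 12 highest log2 fold changes among called genes of at least 10 CPM without overlap were mostly keratinocyte genes. They were KRT5, KRT13, KRT6A, IGFL2-AS1, KRT17, SPRR2F, IGFL2, SFN, S100A9 and KRT15, together with SPARCL1 and CADM2. KRT17 stood at 1.76, 1.17 and 0.972 CPM on day 21 and 82.2 and 602 CPM on day 34 in mesenchymal cells and at 15.5, 13.3 and 10.9 on day 21 and 2600.4 and 3046 on day 34 in EPCAM-positive cells. Without the keratin-led clusters KRT17 still had a log2 fold change of 5.75 (edgeR adjusted p = 0.000372), against 7.89 with them. KRT13, KRT15 and SPRR2F did not pass the filter on low counts without those clusters. Reads of IGFL2 and its antisense partner cannot be told apart where counting ignores strand, and the setting is not given in the sources used here. KRT6A has near-identical copies. KRT13 missed the threshold without day 21 replicate 1 (0.0568) or 3 (0.0657), and SPRR2F without day 21 replicate 3 (0.0608).

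Because 10 of these 12 were lower in mesenchymal than in EPCAM-positive cells, the same ranking was repeated on genes at least as high in mesenchymal as in EPCAM-positive cells on the day of their higher level, a choice made after the values were seen. SPARCL1 (chr4:87473335-87531061, GRCh38), a secreted relative of SPARC found in pericytes and quiescent fibroblasts, came first. It stood at 0.905, 0.708 and 0.702 CPM on day 21 and 73.98 and 54.9 CPM on day 34 (6.25 ± 0.23, edgeR adjusted p = 7.12e-06), and EPCAM-positive cells held 2.28, 2.36 and 1.69 CPM on day 21 and 3.71 and 3.93 CPM on day 34. THBS2 (thrombospondin 2) stood at 0.639, 0.708 and 0.378 CPM on day 21 and 26.9 and 23.9 CPM on day 34 (5.30 ± 0.26). NFIX, a factor of late fetal development in several tissues, stood at 1.01, 1.25 and 1.24 CPM on day 21 and 27.6 and 17.1 CPM on day 34 (4.12 ± 0.27), and MAB21L1 at 2.56, 2.12 and 1.46 CPM on day 21 and 27.8 and 38.2 CPM on day 34 (3.87 ± 0.25). The plexin PLXNC1, the micropeptide gene DWORF and ANKRD29 rose by 4.21, 5.03 and 5.32. CADM2, COL12A1, OGN, MGP and INHBA completed the 12, and all 12 kept their calls in each of the 15 alternatives that gave them a value. For OGN, which could pass the filter on low counts only through day 34, the call is a description.

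The largest fall belonged to SUCNR1 (chr3:151873643-151884619, GRCh38), the receptor for succinate, which stellate cells carry. It stood at 106, 114 and 113 CPM on day 21 and 2.50 and 1.87 CPM on day 34 (-5.76 ± 0.23, edgeR adjusted p = 7.12e-06), and EPCAM-positive cells held 3.17, 2.39 and 2.43 CPM on day 21 and 0.247 and 5.99 CPM on day 34. The cardiac and gut mesoderm factor GATA5 stood at 24.1, 24.2 and 17.1 CPM on day 21 and 2.98 and 0.555 CPM on day 34 (-3.59 ± 0.49, edgeR adjusted p = 0.0018). The heparan sulfate sulfotransferase HS3ST1 stood at 65.4, 52.4 and 60.6 CPM on day 21 and 8.63 and 4.30 CPM on day 34 (-3.29 ± 0.29) and TMEM88, a WNT inhibitor of mesoderm, at 50.5, 48.7 and 36.6 CPM on day 21 and 6.19 and 5.13 CPM on day 34 (-3.12 ± 0.22). IGDCC3 stood at 368, 277 and 405 CPM on day 21 and 76.95 and 35.9 CPM on day 34 (-2.75 ± 0.34). CRB2, KCNIP4, RGS13, SPSB4 and PDE1A fell by 3.22, 3.17, 2.84, 2.78 and 2.72 on the log2 scale, and HAND1 and CDKN2A, given above, completed the 12. All 12 were picked among called genes whose days did not overlap, so the separation of the days is a condition of the choice.

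Whether a day effect differed between mesenchymal and EPCAM-positive cells of the same libraries was tested as an interaction over 10 summed profiles, with the library as a block. The EPCAM-positive cells below the collagen threshold numbered 2618, 1477 and 2649 on day 21 and 464 and 5515 on day 34. In day 34 replicate 1 a further 1706 EPCAM cells lay above the collagen threshold and did not enter. The part of this selection in the differences was not tested. Of 19634 genes tested, 2607 (13.3%) passed an edgeR adjusted p of 0.05, 1480 (7.54%) with a higher and 1127 (5.74%) with a lower effect in mesenchymal cells. On EPCAM-positive cells alone 4243 of 19943 genes (21.3%) differed between days. The count of differing effects was 3078 without the keratin-led clusters, 761 on cells with no G2 or mitosis UMI, and 887 to 4669 when single libraries were left out.

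Of 26 matrix genes tested for the difference, 8 had a higher and 4 a lower effect in mesenchymal cells, with a median difference of 0.05. Of 22 secreted signals, 6 had a higher and 7 a lower one, and of 18 matrix enzymes and inhibitors 6 and 3. The background for these counts is the 7.54% with a higher and 5.74% with a lower effect over all genes tested for the difference. List counts for the difference were not repeated without single libraries or the keratin-led clusters. COL12A1 had a difference of effects of 4.38 ± 0.35 (edgeR adjusted p = 0.000547), and EPCAM-positive cells held 4.46, 4.89 and 4.37 CPM on day 21 and 13.2 and 9.20 CPM on day 34. RSPO3 went opposite ways: it rose in mesenchymal cells and fell from 23.1, 14.4 and 27.2 CPM on day 21 to 7.42 and 4.04 CPM on day 34 in EPCAM-positive cells, a difference of 3.92 ± 0.17 (edgeR adjusted p = 5.2e-05). WNT2 and IGF1 differed by 2.46 and 1.37, in both cases with EPCAM-positive levels that did not pass. TIMP3, TIMP2 and MMP14 differed by 1.07, 0.80 and 0.99. Of the 11 hypoxia genes tested, 8 had a higher effect in mesenchymal cells and 0 a lower one. BNIP3 for instance differed by 2.28 ± 0.16. In mesenchymal cells the list summed to 1239 to 1815 CPM on day 21 and 4628 and 1002 on day 34. In EPCAM-positive cells it summed to 2508 to 4180 and to 6304 and 1134. In day 34 replicate 2 both groups thus lay below day 21, so there a higher effect means a smaller fall.

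Other genes had a lower day effect in mesenchymal than in EPCAM-positive cells. DLK1, a Notch ligand of fetal liver, was at 206, 202 and 146 CPM on day 21 and 154 and 77.4 CPM on day 34 in mesenchymal and 29.7, 31.01 and 23.3 on day 21 and 202 and 160.0 on day 34 in EPCAM-positive cells, a difference of -3.41 ± 0.19 (edgeR adjusted p = 0.000135). IGFBP3 had -2.97 ± 0.11, SFRP1 -2.02 ± 0.18 and PTN -1.92 ± 0.13. Of 27 transcription factors tested, 3 had a higher and 10 a lower effect in mesenchymal cells. ZEB2, for instance, was at 71.2, 62.6 and 87.6 CPM on day 21 and 69.3 and 50.7 CPM on day 34 in mesenchymal cells and rose from 1.45, 2.11 and 2.14 CPM on day 21 to 8.41 and 10.3 CPM on day 34 in EPCAM-positive cells (-2.68 ± 0.26, edgeR adjusted p = 0.00114). For the mitotic genes the effect was higher in 0 and lower in 1 of 18 members, and for the TGF-β pathway higher in 1 and lower in 3 of 15. Of 12 contractile genes 2 had a higher and 3 a lower effect, of 12 inflammation genes 1 and 3, and of 13 immediate early and heat shock genes 1 and 2. Over all genes 7.54% had a higher and 5.74% a lower effect, so a count of 1 in these lists lay near the background.

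HOX genes were looked at after the values had been seen. They encode factors that mark position along the body axis, with low paralog numbers anterior and high numbers posterior, and are grouped in 4 clusters. Of 39 genes found, 34 were tested. Paralog groups 9 to 13 summed to 206, 184 and 188 CPM in mesenchymal cells on day 21 and to 274.1 and 273.9 on day 34, against 11.99 to 30.9 CPM in EPCAM-positive cells. Paralog groups 1 to 8 were present in both compartments, with sums of 217 to 302 CPM in mesenchymal and 169.5 to 207 CPM in EPCAM-positive cells. Among genes of 5 CPM or more, the ratio of mesenchymal to EPCAM-positive levels had a median of 1.32 over 15 genes of groups 1 to 8 and of 16.3 over 9 genes of groups 9 to 13. The ratios ranged from 0.804 to 6.43 in the first set, with HOXD8 the highest, and from 1.91 to 31.04 in the second, with HOXB9 the lowest, so the sets overlapped. HOXA6 and HOXD3, below 5 CPM, had ratios of 16.4 and 8.03.

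Calls with day are given for each set of paralog groups, and the difference between the sets was not tested. Of 21 tested genes of groups 1 to 8, 0 were higher and 12 lower, with a median log2 fold change of -0.63. Of 13 of groups 9 to 13, 5 were higher and 1, HOXB9, lower, with a median of 0.69, and over all genes 11.3% were higher and 7.90% lower. HOXC11, among the 5, stood at 0.320, 0.250 and 0.108 CPM on day 21 and 1.74 and 4.51 CPM on day 34. It could pass the filter on low counts only through day 34. HOXC5, among the 12 lower, held 5 and 2 UMIs on day 34 and could pass only through day 21. The calls of HOXC11 and HOXC5 are a description. Without the keratin-led clusters 0 were higher and 10 lower in groups 1 to 8, and 5 higher and 0 lower in groups 9 to 13, with an edgeR adjusted p of 0.0542 for HOXB9. Without single day 21 libraries the counts were 0 higher and 5 to 6 lower in groups 1 to 8. In groups 9 to 13 they were 3, 2 and 4 higher without day 21 replicates 1, 2 and 3, and 0 to 1 lower. Without day 34 replicates 1 and 2 the medians were -0.72 and -0.52 in groups 1 to 8, and 0.63 and 0.66 in groups 9 to 13. In groups 1 to 8 the lower calls numbered 6 of 19 tested under the higher collagen threshold, 8 of 21 when CDH1 and CLDN6 were excluded too, and 2 of 17 on cells with no G2 or mitosis UMI, where the median was -0.61. HOXA10 stood at 38.5, 31.4 and 34.1 CPM on day 21 and 85.4 and 92.2 CPM on day 34 (1.23 ± 0.15, edgeR adjusted p = 0.0011), and HOXD13, the last gene of its cluster, at 18.3, 15.2 and 17.1 CPM on day 21 and 30.2 and 31.1 CPM on day 34 (0.73 ± 0.15, edgeR adjusted p = 0.0126). HOXA13 was at 38.2, 40.6 and 41.03 CPM on day 21 and 36.6 and 36.1 CPM on day 34 and did not pass. Towards the anterior end HOXC4 stood at 8.68, 6.91 and 10.04 CPM on day 21 and 3.67 and 4.16 CPM on day 34 (-1.26 ± 0.23, edgeR adjusted p = 0.00698). HOXA10 and HOXA9 had a higher day effect in mesenchymal than in EPCAM-positive cells (1.47 ± 0.34 and 1.89 ± 0.37, edgeR adjusted p = 0.0292 and 0.0155). HOXB9 missed the threshold without day 21 replicate 1 (0.107) or 2 (0.0513) or day 34 replicate 1 (0.0773), CDH1 without day 21 replicate 1 (0.0511) or 3 (0.0667), and CLDN6 without any 1 of the day 21 libraries (0.119 to 0.146) or day 34 replicate 2 (0.696). HOXD13 missed the threshold without day 21 replicate 1 (0.064) or 2 (0.0533), and HOXA9 without day 21 replicate 2 (0.0549).

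**Figure D5:**
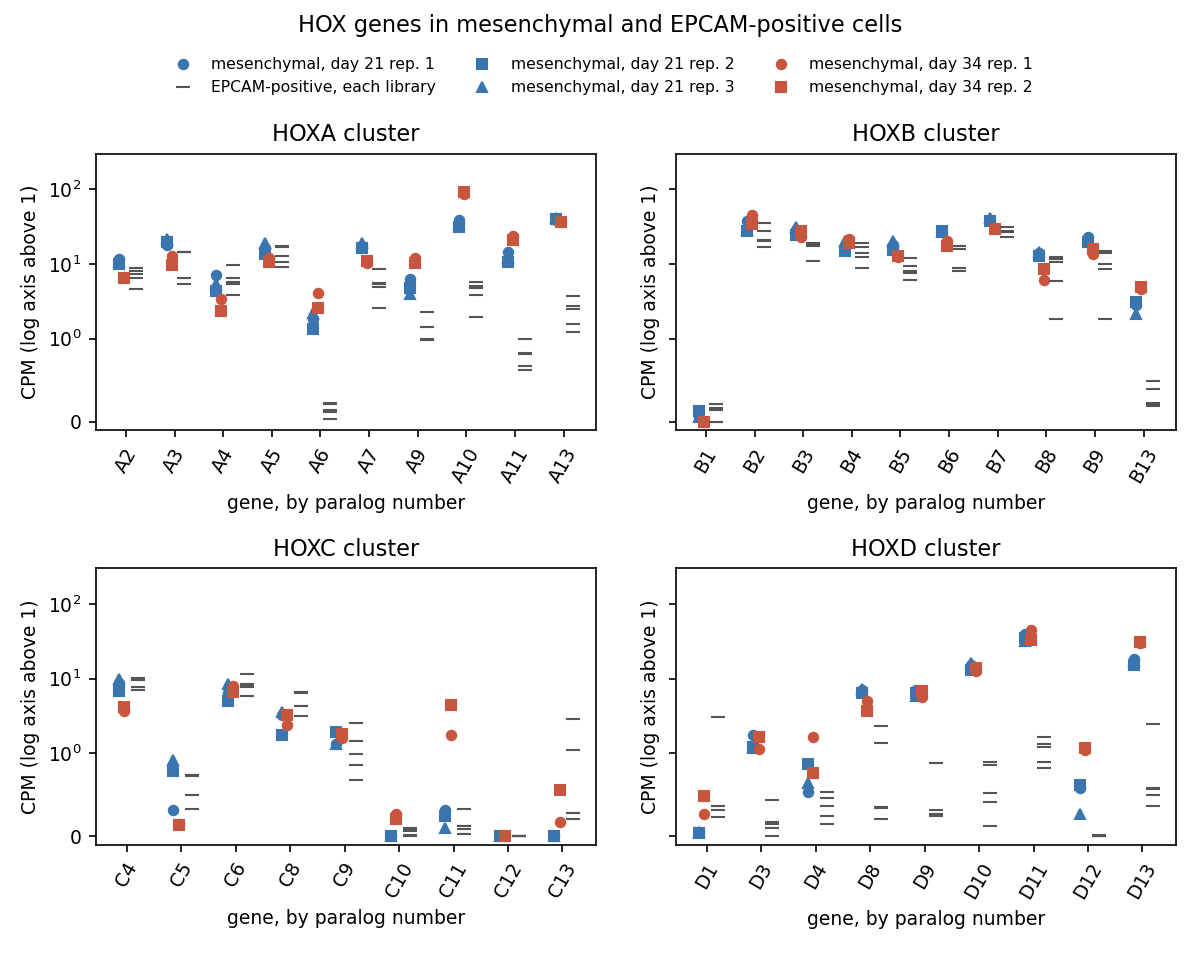
CPM (y axis, log above 1) of HOX genes of each cluster ordered by paralog number (x axis), with 1 point per library for mesenchymal cells and dashes for the EPCAM-positive cells of each library. HOXA10, HOXA11, HOXA13 and HOXD9 to HOXD13 lie above the dashes, while HOXA2 to HOXA5 and HOXB2 to HOXB8 lie near them, and HOXA6, HOXA7, HOXD3 and HOXD8 lie above them as well.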

How the data were processed

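UMI counts per gene and cell were deposited as matrices for each library. They came from bcl2fastq, Cell Ranger 3.0.2 and Scanpy on GRCh38, per the submitters' processing notes, and whether barcodes were filtered further is not given in the sources used here. All 58721 genes of the deposited count tables were read. Counts were summed per library over the mesenchymal cells and over EPCAM-positive cells below the collagen threshold, since libraries and not cells are the replicates.

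Day 34 (n = 2) was compared with day 21 (n = 3) by edgeR 4.0.16 in R 4.3.3 (quasi-likelihood test, filterByExpr, TMM), with Benjamini-Hochberg adjustment over all genes tested and calls below 0.05. Standard errors are the size of the log2 fold change over the square root of F. Tested on simulated data for the mesenchymal day comparison at a dispersion of 0.05 and 17000 genes, the fit recovered 27% of 2-fold and 100% of 4-fold changes, with 2 false calls. At a dispersion of 0.2 it recovered 0% and 11%. For the difference between cell groups it recovered 10% of 2-fold and 86% of 4-fold changes at 0.05, and 0% and 2% at 0.2. Clusters were made with scanpy 1.11.5 and leidenalg 0.10.2 (resolution 0.3) and only described.

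Named genes were list members and, among called genes of at least 10 CPM whose days did not overlap, the 12 highest and 12 lowest fold changes, and for the difference between cell groups the 6 highest and 6 lowest. The repeat limited to mesenchymal genes, the HOX family and the fits without keratin-led clusters were chosen after seeing the data. Members and lists were chosen with earlier results of these data known. Doublets were kept in the values given, and removed as an alternative at 0.8% per 1000 barcodes by Scrublet score. Other alternatives were RLE normalization, no filter on low counts, DESeq2 1.42.0, stricter cell and collagen thresholds, and leaving out each library. Gene coordinates are from GENCODE on GRCh38. Some genes that these rules name are not reported here. Other libraries of the series were not used here.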

Additional observations from a re-analysis of the deposited data

Results flagged for a closer look

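The day effect differed between mesenchymal and EPCAM-positive cells for 2607 genes by the edgeR interaction test. The 6 genes with the highest difference (log2, mesenchymal minus EPCAM-positive) were CA12 at 6.12, HNF4G at 5.96, FGG at 5.82, ANPEP at 5.72, ANKRD29 at 5.53 and SPARCL1 at 5.46. CA12, HNF4G, FGG and ANPEP fell in EPCAM-positive cells, and of these CA12, HNF4G and ANPEP rose in mesenchymal cells, by 3.41, 2.00 and 1.82 on the log2 scale. ANKRD29 and SPARCL1 also rose in mesenchymal cells. Among the lowest were HOPX at -6.48, SUCNR1 at -5.86, SERPINB2 at -4.88 and ADAMTS5 at -4.07. FGG missed the threshold without any 1 of the day 21 libraries (edgeR adjusted p = 0.064 to 0.0939) and without day 34 replicate 1 (0.312), where its difference was 1.97. SERPINB2 missed it without day 21 replicate 2 (0.248) or 3 (0.136), and SUCNR1 without day 34 replicate 2 (edgeR adjusted p = 0.3), where its difference was -1.95.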

How the results depend on the processing

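The count of genes that differed between days, 3276, was 1630 on cells without G2 and mitosis UMIs and ranged from 1168 to 4419 when single libraries were left out. It stayed within 1.5 times under the 9 other alternatives. Deviations from the mean of the day had correlations of 0.025 and -0.034 between same-numbered libraries. With 2 day 34 libraries these deviations mirror each other, so the correlations cannot show whether the replicate numbers pair libraries. The fit with a replicate block gave 3108. The share of calls that were higher was 58.9%, and 69.0% without day 21 replicate 1. The count of differing day effects, 2607, was 3941 with no filter on low counts, 1687 with a stricter cell filter, 761 on cells without G2 and mitosis UMIs and 887 to 4669 without single libraries. The difference in the share of mesenchymal cells, -2.30 points, was -8.74 under a stricter cell filter, -5.29 without keratin-led clusters and -4.50 with CDH1 and CLDN6 excluded too, turned to 5.33 under a higher collagen threshold and to 13.4 without the EPCAM criterion, and was -14.9 to 10.3 without single libraries. The cause was not tested. The difference in cycling share, -15.5 points, was -14.8 with doublets removed, -13.7 without keratin-led clusters, -12.3 with no thinning, -18.1 at 3000 UMIs, -18.1 at 6 or more UMIs, and -27.9 to -3.18 without single libraries. Of 2880 alternative values for 196 named genes, 2527 kept direction and call, 352 lost the call, and 1 turned, CLDN6 at -0.16 without keratin-led clusters. With 3 against 2 libraries, 27% of simulated 2-fold changes in the day comparison were recovered at a dispersion of 0.05 and 0% at 0.2. The simulation changed 100 genes at each fold, far fewer than the 3276 called, which makes the adjusted p stricter. The common dispersion fitted to the data was 0.0398. The simulated recovery therefore does not give the share of real 2-fold changes that were missed.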
